A study of Mus musculus with 14 samples.

Results

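Mouse embryonic stem cells grown with the 2i supplement and leukemia inhibitory factor (2i/LIF) were compared with the same cells in serum and LIF alone (FBS/LIF). The libraries were chosen by their titles, 2 for each medium, and make up 4 of the 14 samples of the study. All expressed genes were taken: 16033 of the 37991 genes in the files passed a filter on low counts. The cells were C57BL/6 embryonic stem cells carrying an mCherry reporter for mir-290 and an eGFP reporter for mir-302, so every group below shares both reporters. They were seeded sparsely and kept in each medium for 5 days. FBS/LIF is fetal bovine serum with LIF, and the growth protocol lists 2i among additions to it without naming the inhibitors or their doses, while the titles read 2i_LIF. A further 3 media, with 2 libraries each, serve as background where stated. VitC/LIF is FBS/LIF plus 500 µM vitamin C, L-Pro/LIF is FBS/LIF plus L-proline (its dose is not stated for these libraries), and F/A is N2B27 that holds 20 ng/ml Activin A plus 12 ng/ml bFGF, with no LIF listed. The other 4 samples of the study hold no 2i library and were not used. Whether replicates of 1 medium were separate cultures is not in the labels, so p-values measure the spread between these libraries, which may be technical.

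The name 2i is in common use for an inhibitor of the kinase MEK together with an inhibitor of the kinase GSK3. MEK activates ERK, which carries the signal of fibroblast growth factors (FGFs) and pushes embryonic stem cells towards differentiation. GSK3 marks β-catenin for destruction, so its inhibition mimics a Wnt signal and lifts the repression that the factor encoded by Tcf7l1 exerts on naive pluripotency genes. LIF acts through the receptor subunit gp130 and the transcription factor STAT3. Cells in serum and LIF are known as a mixture of naive and more advanced states, and cells in 2i as a more uniform naive population with little DNA methylation.

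Mapped fragments numbered 22750698 and 21895681 in the FBS/LIF libraries and 20126845 and 18920832 in the 2i/LIF libraries. Gene levels are given as CPM, the count scaled to library size, after TMM scaling, in the order replicate 1, replicate 2, and differences as log2 fold changes of 2i/LIF over FBS/LIF. A gene is called, and is said to have risen or fallen, at an adjusted p under 0.05 in edgeR's quasi-likelihood test. The 6 markers of embryonic stem cells summed to 2480 and 2420 CPM in FBS/LIF and to 3080 and 2980 CPM in 2i/LIF, so the labelled cell type was present in all 4 libraries. RNA was taken from whole cultures, in which fewer cells of one state and less RNA per cell cannot be told apart.

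Between 2i/LIF and FBS/LIF 4867 of the 16033 genes were called (30.4%), of which 1999 rose (12.5%) and 2868 fell (17.9%). Counts of list members below stand against these shares of all genes. Large changes were mostly downward: 171 of the called genes had risen and 625 had fallen by at least 3 on the log2 scale. The median over all genes tested was -0.04. At an unadjusted p under 0.05 the number of genes was 6546. All 4867 called genes had no overlap between the 2 media, but the same held for 10909 of the 16033 tested, so with 2 libraries per medium the lack of overlap alone says little. Without FBS/LIF replicate 1, FBS/LIF replicate 2, 2i/LIF replicate 1 or 2i/LIF replicate 2 the number of genes called was 3298, 3196, 2932 or 3048.

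Among genes with a mean of at least 16 CPM in the higher medium the deepest fall was that of Esrp1 (ENSMUSG00000040728), which encodes an RNA-binding protein that sets epithelial patterns of splicing. It stood at 56.0 and 65.4 CPM in FBS/LIF and at 0.212 and 0.448 CPM in 2i/LIF (log2 fold change -7.51, SE 0.29, adjusted p = 2.15e-06). Both 2i/LIF libraries lay far below both FBS/LIF libraries. Next came 2 genes of the ectonucleotide pyrophosphatase family, Enpp3 (48.6 and 63.6 CPM against 0.530 and 0.841 CPM) and Enpp2, with log2 fold changes of -6.35 and -5.95. Gli1, a transcription factor gene switched on by Hedgehog signals, was at 36.3 and 37.5 CPM in FBS/LIF and at 0.636 and 0.785 CPM in 2i/LIF (log2 fold change -5.69, SE 0.21). Has2, the gene of a hyaluronan synthase, Fermt1, whose product links integrins to actin, Slc40a1, the gene of the iron exporter ferroportin, and Thbs1, the gene of the matrix protein thrombospondin 1, fell by 5.45, 5.33, 5.26 and 4.94 on the log2 scale.

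At the other end stood Nkx1-2 (ENSMUSG00000048528), a homeobox gene of the caudal epiblast, at 0.277 and 0.281 CPM in FBS/LIF and at 29.2 and 28.2 CPM in 2i/LIF (log2 fold change 6.65, SE 0.24, adjusted p = 1.71e-06). Sh2d4b, a gene of an SH2 domain protein, followed with 0.231 and 0.375 CPM against 17.6 and 18.6 CPM (log2 fold change 5.87). Trpm1, the gene of a cation channel of melanocytes and retina, was at 1.71 and 2.06 CPM in FBS/LIF and at 62.0 and 62.3 CPM in 2i/LIF (log2 fold change 5.04, SE 0.35). Mitf, the regulator of melanocyte genes that is known to control Trpm1, rose from 9.80 and 9.70 CPM to 79.1 and 74.7 CPM (log2 fold change 2.98, SE 0.12). The most abundant of the strongly risen genes was Epha4, an ephrin receptor gene, with 20.0 and 19.3 CPM against 282 and 256 CPM (log2 fold change 3.78, SE 0.13).

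**Figure D1:**
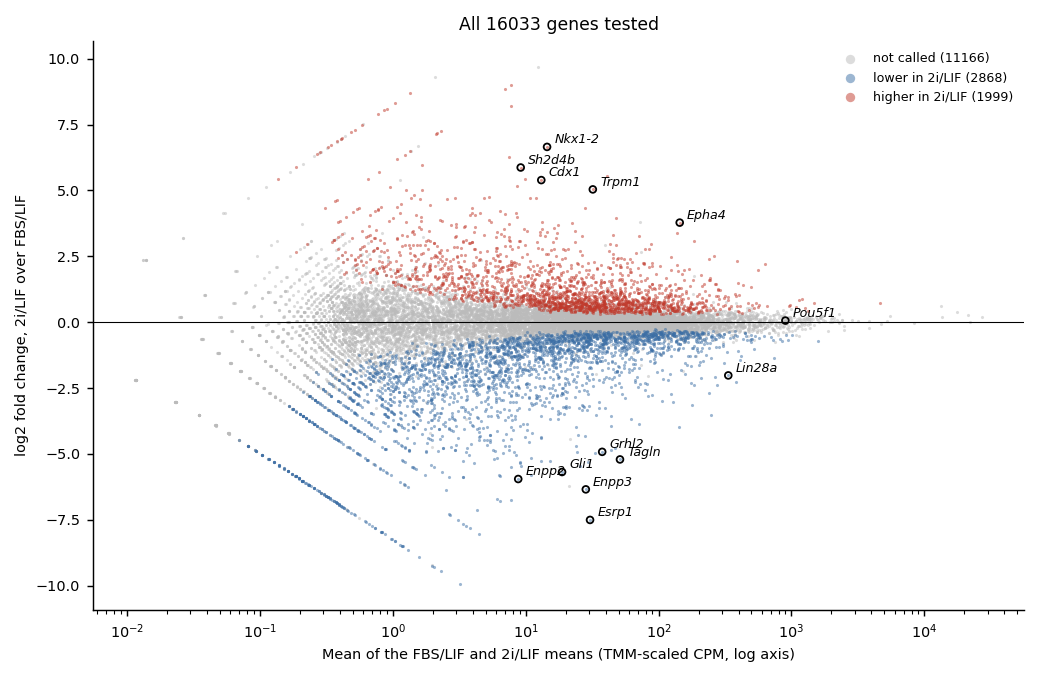
Log2 fold change of 2i/LIF over FBS/LIF (vertical axis) against the mean level of both media (horizontal log axis) for all 16033 genes tested. Red marks the 1999 genes that rose, blue the 2868 that fell and grey those not called; the lowest and highest diagonal streaks are genes without counts in 1 medium, whose fitted values depend on the prior count. Esrp1 lies lowest and Nkx1-2 highest of the genes labelled, and Pou5f1 lies near 0.

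Genes of naive pluripotency rose as a group. Of the 22 listed, all passed the filter, 15 rose and 3 fell, with a median log2 fold change of 0.92. Tbx3, a transcription factor gene that sustains self-renewal, was at 16.6 and 23.8 CPM in FBS/LIF and at 149 and 165 CPM in 2i/LIF (log2 fold change 2.96, SE 0.26). Tfcp2l1, a factor gene downstream of STAT3, was at 106 and 151 CPM against 637 and 661 CPM (log2 fold change 2.34, SE 0.28). Prdm14, a regulator gene known to hold down FGF signalling and the de novo methyltransferases, stood at 8.04 and 8.86 CPM against 42.3 and 38.5 CPM (log2 fold change 2.26, SE 0.24). In these 3 genes every 2i/LIF value lay above every FBS/LIF value by more than the spread within a medium. Jam2, which encodes a junctional adhesion molecule, rose by 1.95. Fgf4, the ligand gene through which these cells signal to themselves, rose by 0.37, the smallest of the 15 calls, and this call was lost without any 1 of the 4 libraries (adjusted p from 0.0506 to 0.202 in edgeR's test). Esrrb rose by 0.83 (SE 0.20), and its call was lost without FBS/LIF replicate 1 (adjusted p = 0.0969) or without 2i/LIF replicate 2 (adjusted p = 0.0822) in edgeR's test.

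The 3 naive genes that fell were Dusp9, Dppa3 and Gbx2. Dusp9, which encodes a phosphatase of ERK, was at 148 and 125 CPM in FBS/LIF and at 24.8 and 20.6 CPM in 2i/LIF (log2 fold change -2.59, SE 0.23). Dppa3 encodes a protein that keeps maternal DNA from losing methylation, and it was at 51.1 and 43.2 CPM against 9.22 and 6.61 CPM. Gbx2, a homeobox gene induced by STAT3, had a log2 fold change of -0.94 (SE 0.13).

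The factor genes Pou5f1 and Sox2, at the core of pluripotency, were not called. Pou5f1, the gene of Oct4, was at 946 and 818 CPM in FBS/LIF and at 997 and 840 CPM in 2i/LIF, so the media overlapped (log2 fold change 0.06, SE 0.17, adjusted p = 0.834 in edgeR's test). Sox2 was at 669 and 662 CPM against 793 and 802 CPM (log2 fold change 0.26, SE 0.19), and was called in the fit of the 4 libraries alone (adjusted p = 0.0459) and without F/A replicate 1 (adjusted p = 0.0268) in edgeR's test. Of the 15 genes of the core list 6 fell and 1, Foxd3, rose. Utf1, a chromatin factor gene, was at 60.8 and 70.3 CPM in FBS/LIF and at 14.0 and 17.0 CPM in 2i/LIF (log2 fold change -2.08, SE 0.18). Foxd3 was not called without FBS/LIF replicate 2 or without 2i/LIF replicate 1, and 2 core genes were higher without F/A replicate 1. On the length-scaled FPKM level, Pou5f1 stood at 819 and 700 against 848 and 698, Nanog at 64.8 and 82.9 against 190.0 and 209, and Tfcp2l1 at 11.2 and 16.2 against 66.2 and 68.8.

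Genes of the primed epiblast, the state that follows naive pluripotency, mostly fell. Of the 21 listed, all passed the filter, 13 fell and 3 rose. Their median log2 fold change was -1.57. Grhl2, a transcription factor gene of epithelia, was at 73.6 and 72.3 CPM in FBS/LIF and at 2.33 and 2.47 CPM in 2i/LIF (log2 fold change -4.92, SE 0.13). Otx2, a homeobox gene that opens primed enhancers, was at 19.7 and 20.1 CPM against 2.23 and 2.24 CPM. The values within a medium lay close together in both genes. Fgf15, an FGF ligand gene, had a log2 fold change of -4.07 (SE 0.35). Fgf5, the ligand gene used as a primed marker, had 90 counts over the FBS/LIF libraries and 0 over the 2i/LIF libraries, and was at least 25.6-fold lower when set against 3 counts over the group. Pou3f1 fell by 5.29, but 2.25% of its FBS/LIF count came from fragments that hit no other gene, so its value is uncertain. The 3 genes that rose were Nkx1-2, Tead2 and Foxd3, and Nkx1-2 alone of these was called without FBS/LIF replicate 2 or without 2i/LIF replicate 1.

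**Figure D2:**
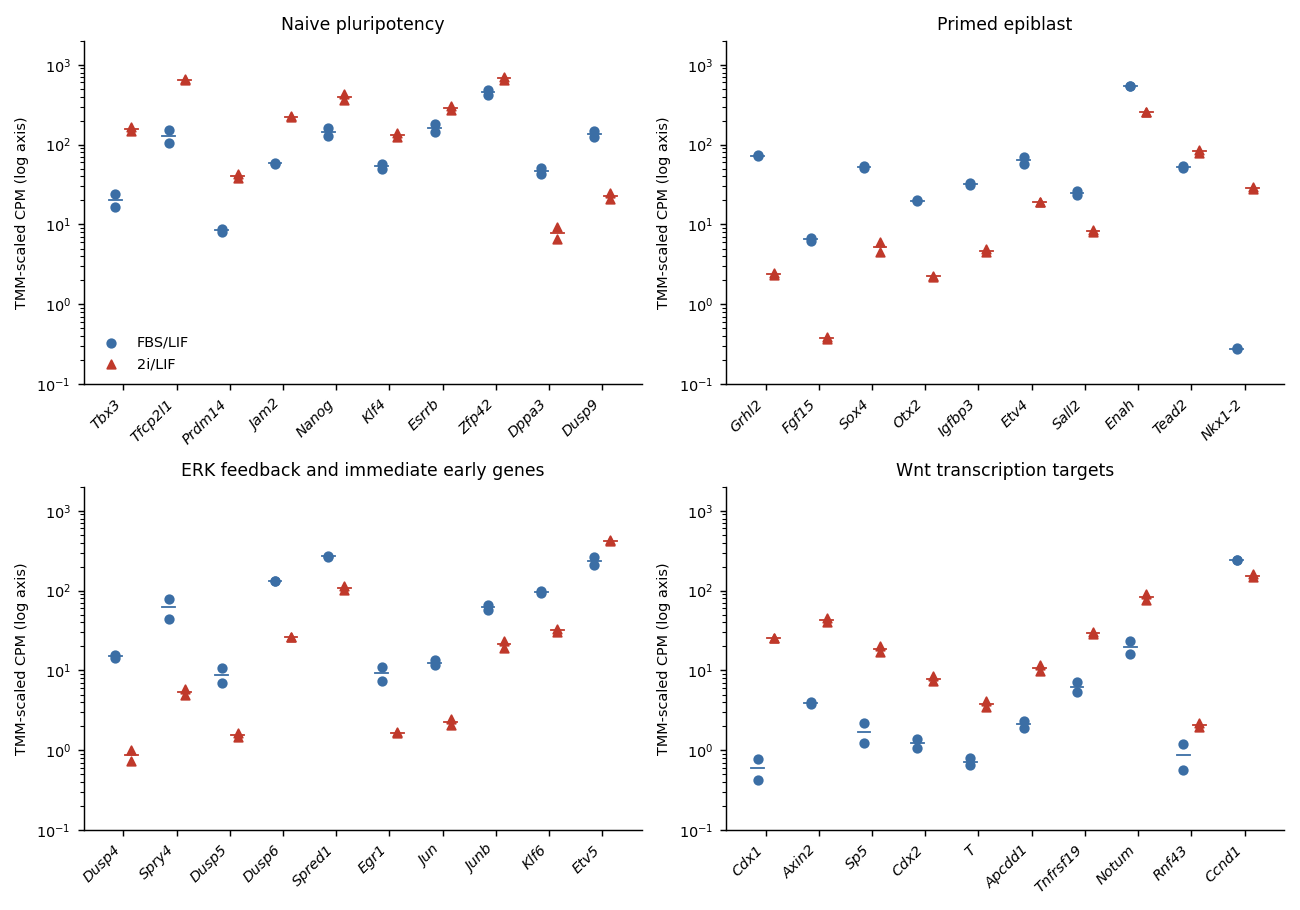
TMM-scaled CPM (vertical log axis) of named genes in each FBS/LIF library (blue circles) and 2i/LIF library (red triangles), with short lines at the means of the 2 libraries. Most naive genes and Wnt targets lie higher in 2i/LIF and most primed and ERK-dependent genes lower, while Dppa3, Dusp9, Ccnd1, Etv5, Tead2 and Nkx1-2 run against their panels.

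Negative feedback genes of ERK, which report the activity of the pathway, and FGF targets were listed together. They fell more often than they rose: of 19 listed, 13 fell and 2 rose. Their median log2 fold change was -1.30. Of the 4 not called, Spry2 and Il17rd had the highest levels. Spry2 was at 59.2 and 78.5 CPM in FBS/LIF and at 55.85 and 66.1 CPM in 2i/LIF (log2 fold change -0.175, SE 0.21). Il17rd was at 50.7 and 52.7 CPM against 47.2 and 55.2 CPM (log2 fold change -0.014, SE 0.197). Dusp4 and Dusp6 encode phosphatases that switch ERK off. Dusp4 was at 14.4 and 15.8 CPM in FBS/LIF and at 0.742 and 1.01 CPM in 2i/LIF (log2 fold change -4.11, SE 0.17), and Dusp6 was at 130 and 131 CPM against 26.6 and 26.5 CPM (log2 fold change -2.30, SE 0.11). Spry4, which encodes an inhibitor upstream of RAF, had the widest spread of these genes in FBS/LIF, at 44.7 and 79.3 CPM, and stood at 4.88 and 5.89 CPM in 2i/LIF (log2 fold change -3.53, SE 0.42). The media did not overlap in Dusp4, Dusp6 or Spry4, which held for every called gene. The ETS factor genes that ERK induces were split: Etv4 fell by 1.73, while Etv5 was at 209 and 267 CPM against 420 and 427 CPM (log2 fold change 0.83, SE 0.16) and Etv1 rose by 0.79. The call of Etv1 was lost without FBS/LIF replicate 1 (adjusted p = 0.0615) or 2i/LIF replicate 2 (adjusted p = 0.0587) in edgeR's test, which left 1 of the 2 rises.

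Immediate early genes, transcribed within minutes of a growth factor signal, moved in 1 direction only: of the 19 that passed the filter, of 20 listed, 10 fell and 0 rose in edgeR's test, with a median of -1.33. At an unadjusted p under 0.05 these numbers were 14 and 0, and DESeq2 called 12 lower and 0 higher. Egr1, a zinc finger factor gene, was at 7.40 and 11.0 CPM in FBS/LIF and at 1.70 and 1.63 CPM in 2i/LIF (log2 fold change -2.47, SE 0.31). Jun was at 11.6 and 13.4 CPM against 2.49 and 2.07 CPM (log2 fold change -2.45, SE 0.17), and Junb and Klf6 fell by 1.55 and 1.60. Among FGF ligands and receptors 5 of 16 fell and 3 rose. Fgfr2, a receptor gene, was at 38.3 and 37.7 CPM against 3.18 and 5.04 CPM (log2 fold change -3.21, SE 0.22), and the ligand gene Fgf17 fell by 3.04. Fgf10 rose by 2.85 from 0.416 and 0.984 CPM. The genes of the cascades themselves, from RAS to ERK and around GSK3, were called at about the background share: of 18, 3 rose and 2 fell (27.8%, against 30.4% of all genes), with a median of 0.08. Map2k1, which encodes MEK1, rose by 0.70 (SE 0.15), a call lost without FBS/LIF replicate 2 (adjusted p = 0.0815) or 2i/LIF replicate 1 (adjusted p = 0.0781) in edgeR's test, and Mapk3, which encodes ERK1, fell by 0.70 (SE 0.13). Without 2i/LIF replicate 1 the cascade counts were 1 higher and 1 lower, without FBS/LIF replicate 2 they were 2 higher and 1 lower, and in the 4 libraries alone 3 higher and 4 lower.

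Transcription targets of the Wnt pathway rose in part. Of the 20 listed, all passed the filter, 9 rose and 3 fell, with a median of 0.79. The promoters of 3 of the 9, Sp5, Tnfrsf19 and T, hold the letters CTTTGAA or CTTTGAT, which TCF/LEF factors are known to bind. They are shown to place these letters (in capitals) before the start site, each read 5′ to 3′ on the strand of its gene from RefSeq, build GRCm38.p6, which is later than the build of the files.
Sp5, chr2:70474774-70474870, plus strand: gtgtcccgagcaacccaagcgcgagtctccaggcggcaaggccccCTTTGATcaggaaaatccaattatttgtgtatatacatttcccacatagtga
Tnfrsf19, chr14:61038138-61038234, minus strand: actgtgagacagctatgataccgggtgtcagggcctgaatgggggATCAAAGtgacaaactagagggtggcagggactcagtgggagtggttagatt
T, chr17:8434173-8434239, plus strand: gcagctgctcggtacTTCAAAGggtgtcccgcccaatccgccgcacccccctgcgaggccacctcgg

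The match begins 104 bases before the start in Sp5, 202 bases in Tnfrsf19 and 235 bases in T, on the opposite strand in the last 2 named. Windows of 300 bases (250 before and 50 after the start, both strands searched) held either string in 8.65% of all 32851 promoters. Counted by gene, with any window enough, this was 9.88% of 27025 genes. Of the 12 listed Wnt targets that matched RefSeq entries it was 4: Dkk1, Sp5, T and Tnfrsf19. The list was built from known targets, so this is a description. Sp5, a zinc finger factor gene that is a direct Wnt target, was at 2.22 and 1.22 CPM in FBS/LIF and at 17.2 and 20.4 CPM in 2i/LIF (log2 fold change 3.44, SE 0.25). T, the brachyury gene of early mesoderm, was at 0.647 and 0.797 CPM against 3.44 and 4.15 CPM, and Tnfrsf19, a receptor gene, rose by 2.23.

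Axin2, the feedback gene used as a general readout of β-catenin, was at 3.98 and 3.80 CPM in FBS/LIF and at 40.5 and 45.5 CPM in 2i/LIF (log2 fold change 3.47, SE 0.21, adjusted p = 1.3e-05). The caudal homeobox gene Cdx1 was at 0.786 and 0.422 CPM against 25.5 and 25.8 CPM (log2 fold change 5.39, SE 0.37), and its relative Cdx2 rose by 2.67. Notum, a secreted Wnt deacylase gene, and Apcdd1, a membrane inhibitor gene, rose by 2.08 and 2.33. All 5 were higher in both 2i/LIF libraries, as was every gene that rose. Ccnd1, the cyclin D1 gene, fell by 0.65, a call lost without any 1 of the 4 libraries (adjusted p from 0.0621 to 0.103 in edgeR's test), and Lgr5, a receptor gene, had 18 counts over the FBS/LIF libraries and 0 over the 2i/LIF libraries, at least 5.13-fold lower against 3 counts over the group. Of its FBS/LIF count 38.9% was unique to the gene, so its value is uncertain. The call of Lgr5 was lost in edgeR's test on unique fragments (adjusted p = 0.0885) and without FBS/LIF replicate 1, 2i/LIF replicate 1 or 2i/LIF replicate 2. Without either 2i/LIF library 1 of the 3 falls was called. Among Wnt ligands, receptors and secreted inhibitors 10 of 26 fell and 5 rose. Wnt7b, a ligand gene, was at 15.4 and 13.4 CPM in FBS/LIF and at 0.636 and 0.336 CPM in 2i/LIF (log2 fold change -4.87, SE 0.28). The receptor gene Fzd7 was at 136 and 132 CPM against 55.9 and 55.1 CPM, while Sfrp1, the gene of a secreted Wnt binder, was at 34.3 and 42.2 CPM against 204 and 220 CPM (log2 fold change 2.47, SE 0.14).

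Early lineage genes moved in both directions. Of 16 mesendoderm genes, 4 rose and 2 fell (37.5% called, against 30.4% of all genes). Eomes was at 2.68 and 3.23 CPM in FBS/LIF and at 13.8 and 14.3 CPM in 2i/LIF (log2 fold change 2.25, SE 0.17). Gsc rose by 4.73 to a mean of 2.63 CPM, and T and Nkx1-2 rose as given above. The list summed to 11.0 and 13.8 CPM against 55.2 and 55.3 CPM, and most of the 2i/LIF sum was Nkx1-2 and Eomes. Of its 16 genes 10 were not called, and the median was 0.11. Of the 7 neuroectoderm genes that passed the filter, of 12 listed, 5 fell and 1 rose. Nes, the nestin gene, was at 74.4 and 75.6 CPM against 16.7 and 18.8 CPM (log2 fold change -2.08, SE 0.18), and Ncam1, a neural adhesion gene, rose by 1.68. Sox1, Olig3, Hes5 and Neurog2 did not pass the filter, and the 3 of 7 neuroectoderm markers that passed summed to 6.8 and 7.45 CPM in FBS/LIF and to 0.477 and 1.01 CPM in 2i/LIF.

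Of the 20 primitive endoderm genes that passed the filter, 8 fell and 2 rose. Lrp2, the gene of the endocytic receptor megalin, was at 256 and 280 CPM in FBS/LIF and at 17.3 and 16.9 CPM in 2i/LIF (log2 fold change -3.97, SE 0.21). The 10 markers of this lineage summed to 269 and 304 CPM in FBS/LIF and to 20.8 CPM in each 2i/LIF library, with 5 lower and none at 0, and most of this sum was Lrp2. The matrix genes Lamb1 and Col4a1, which many other cells also use, fell by 2.19 and 1.57. Without FBS/LIF replicate 2, 2i/LIF replicate 1 or 2i/LIF replicate 2, 5 of the 8 falls were called. Of the 12 trophectoderm genes that passed, 5 fell and 3 rose, and the 5 of 8 markers of the lineage that passed summed to 6.66 and 5.86 CPM against 11.5 and 9.7 CPM. The paired keratin genes Krt8 and Krt18 fell by 2.45 and 3.18, and Tead4, a transcription factor gene that starts this lineage, was at 5.04 and 6.23 CPM against 24.0 and 20.4 CPM (log2 fold change 1.98, SE 0.24). Of 10 genes of primordial germ cells, 3 rose and 4 fell. The receptor gene Kit was at 7.54 and 15.1 CPM in FBS/LIF and at 62.6 and 84.9 CPM in 2i/LIF (log2 fold change 2.71, SE 0.42), Alpl, the alkaline phosphatase gene, rose by 1.66, and Prdm1, which encodes the germ cell specifier Blimp1, fell by 1.92. The 2-cell-like list rests on 4 genes that passed of 16 listed, with 1 higher and 1 lower. With each of the 4 libraries left out in turn, at most 1 of these genes was called, and without F/A replicate 1 the rises numbered 2.

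Genes of epithelial junctions were mostly lower: 22 of 29 fell and 3 rose, with a median of -1.30, where 17.9% of all genes tested fell. Besides Esrp1 and Grhl2, the tight junction genes Cldn6 and Cldn7 were at 50.7 and 56.2 CPM and at 20.3 and 22.4 CPM in FBS/LIF, against 1.91 and 3.42 CPM and 1.48 and 0.785 CPM in 2i/LIF. Epcam, the gene of an epithelial adhesion molecule, was at 314 and 273 CPM against 59.7 and 58.4 CPM (log2 fold change -2.31, SE 0.15). Cdh1, which encodes E-cadherin, was not called, at 134 and 208 CPM against 95.8 and 123 CPM. Spint1, a protease inhibitor gene, and Dsg2, a desmosomal cadherin gene, rose by 1.43 and 1.68, and Jup, which encodes plakoglobin, by 0.36. The call of Jup was lost without any 1 of the 4 libraries (adjusted p from 0.0893 to 0.129 in edgeR's test) and that of Dsg2 without FBS/LIF replicate 1 (adjusted p = 0.0613), which left 1 rise. Of 15 mesenchymal genes that passed, 3 rose and 2 fell, about the background share (33.3% called, against 30.4% of all genes). Vim, the vimentin gene, was at 48.2 and 51.8 CPM in FBS/LIF and at 196 and 202 CPM in 2i/LIF (log2 fold change 1.99, SE 0.13). The repressor gene Zeb1 rose by 2.21, but 0.208% of its 2i/LIF count came from fragments that hit no other gene, so its value is uncertain. Twist1 and Itgb1 fell, and the call of Twist1 was lost without 2i/LIF replicate 2 (adjusted p = 0.0592 in edgeR's test).

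Actin genes and other targets of serum response factor (SRF), the factor that couples actin dynamics and growth signals to transcription, fell nearly throughout. Of the 17 that passed the filter, of 18 listed, 14 fell and 1, Cnn3, rose, with a median of -1.23. SRF binds the CArG box, and the promoters of 4 of the genes that fell are shown with each box in capitals, read 5′ to 3′ on the strand of the gene from RefSeq, build GRCm38.p6.
Myl9, chr2:156775258-156775357, plus strand: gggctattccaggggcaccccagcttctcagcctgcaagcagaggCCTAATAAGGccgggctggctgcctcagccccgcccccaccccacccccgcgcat
Cnn2, chr10:79988499-79988598, plus strand: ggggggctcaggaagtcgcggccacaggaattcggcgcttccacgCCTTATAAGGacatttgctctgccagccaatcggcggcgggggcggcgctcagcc
Actg1, chr11:120348531-120348630, minus strand: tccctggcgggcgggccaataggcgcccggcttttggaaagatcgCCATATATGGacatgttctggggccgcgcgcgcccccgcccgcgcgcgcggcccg
Srf, chr17:46556190-46556289, minus strand: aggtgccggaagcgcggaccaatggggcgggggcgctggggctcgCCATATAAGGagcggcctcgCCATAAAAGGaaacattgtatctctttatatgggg

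The box begins 161, 56 and 90 bases before the start in Myl9, Cnn2 and Actg1, and Srf holds 2 boxes, the first beginning 82 bases before it. In windows of 300 bases, read on both strands, the box stood in 1.63% of all promoters and, counted by gene, in 1.81% of genes. It stood in 6 of the 15 actin and SRF targets that matched RefSeq entries: Actg1, Cnn2, Fhl2, Myl9, Srf and Vcl. Members were listed because they are known targets, so the share describes the list. Myl9, a myosin light chain gene, was at 17.4 and 18.2 CPM in FBS/LIF and at 1.54 and 0.897 CPM in 2i/LIF (log2 fold change -3.86, SE 0.23). Cnn2, a calponin gene, was at 110 and 92.0 CPM against 32.7 and 27.2 CPM. Srf itself was at 48.2 and 49.4 CPM against 28.7 and 33.4 CPM (log2 fold change -0.66, SE 0.14), and Actg1, for which 14.7% of the 2i/LIF count was unique to the gene, fell by 0.66. Without FBS/LIF replicate 2 or 2i/LIF replicate 1 the calls of Srf (adjusted p = 0.0537 and 0.0932) and Actg1 (adjusted p = 0.0959 and 0.102) were lost in edgeR's test, as was that of Actg1 without 2i/LIF replicate 2 (adjusted p = 0.0544).

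Tagln, which encodes transgelin, was at 106 and 94.0 CPM in FBS/LIF and at 3.07 and 2.30 CPM in 2i/LIF (log2 fold change -5.21, SE 0.21, adjusted p = 2.22e-06). Cnn1 and Tpm1, genes of calponin and tropomyosin, fell by 5.19 and 2.37. Actb, the gene of cytoplasmic β-actin, was not called. The rise of Cnn3 was lost without any 1 of the 4 libraries (adjusted p from 0.101 to 0.209 in edgeR's test). Among targets of the Hippo pathway factor YAP, 4 of 12 fell and 3 rose, with Ajuba at 248 CPM on average in FBS/LIF and at 80.7 CPM in 2i/LIF.

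Collagen and matrix genes were split, with 12 of 28 lower and 4 higher (7 higher without F/A replicate 1). Nid1, a basement membrane linker gene, was at 68.0 and 87.5 CPM in FBS/LIF and at 222 and 247 CPM in 2i/LIF (log2 fold change 1.59, SE 0.30), while Lamb1 was at 168 and 215 CPM against 43.5 and 40.8 CPM (log2 fold change -2.19, SE 0.17). Both subunit genes of the main collagen IV, Col4a1 and Col4a2, fell by 1.57 and 1.53. Of 16 fibroblast markers, 13 passed the filter, 6 fell and 1, Pdgfrb, rose, with a median of -2.1. Their sum was 34.2 and 33.3 CPM in FBS/LIF and 20.1 and 19.2 CPM in 2i/LIF, and Col3a1 and S100a4 were at 0 in both 2i/LIF libraries, as was Prrx1 in all 4 libraries. Whether fibroblast RNA had a part in the actin, matrix and mesenchymal values was not tested.

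**Figure D3:**
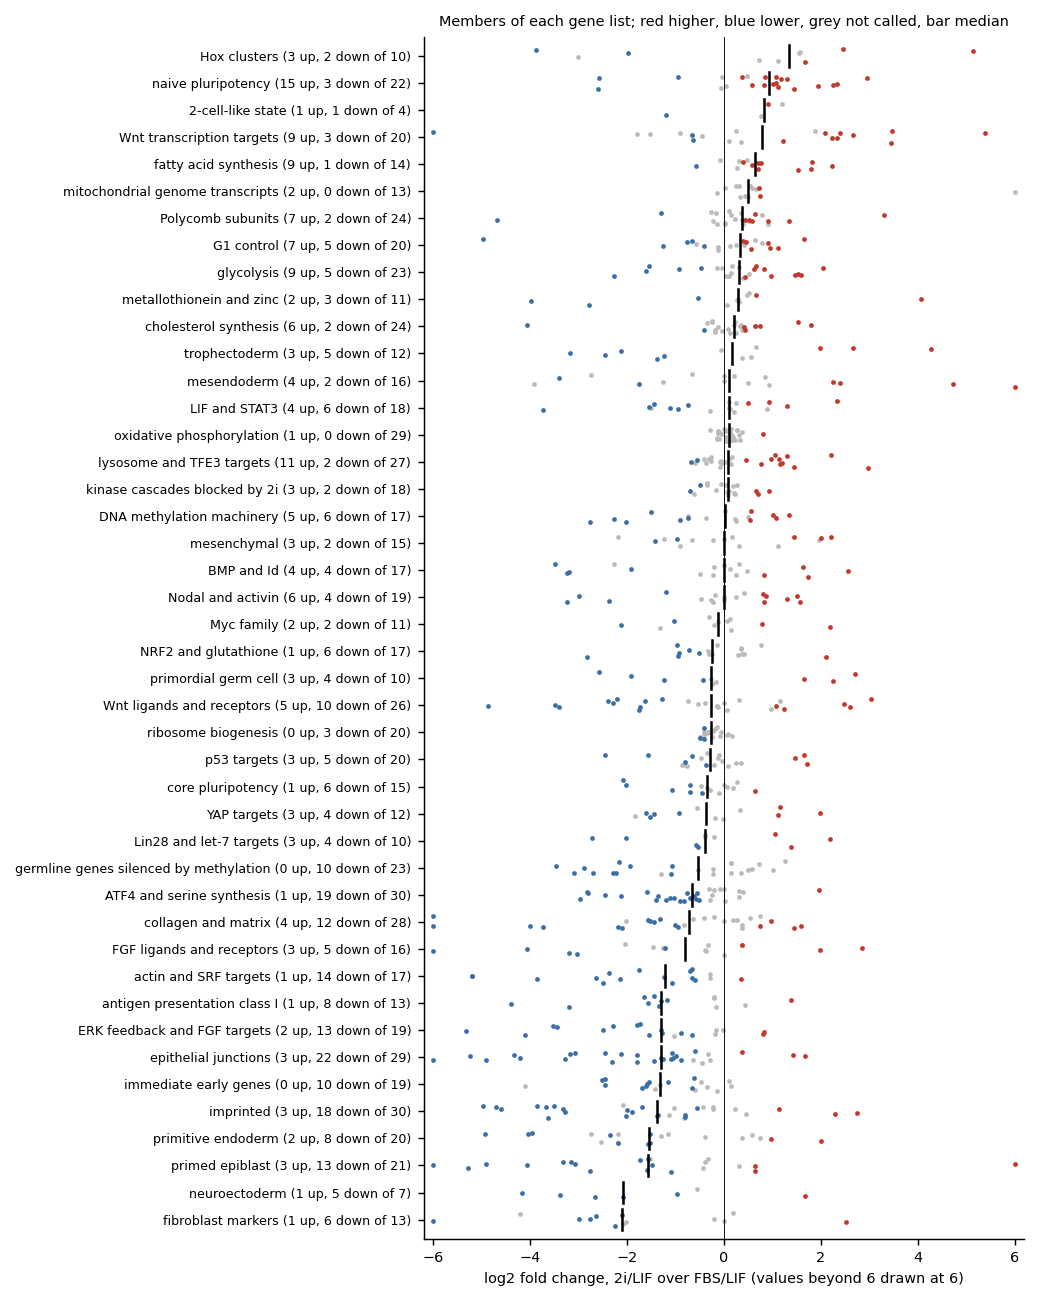
Log2 fold change of 2i/LIF over FBS/LIF (horizontal axis) of every member that passed the filter on low counts, for each of the 44 gene lists, ordered by the median (black bar). Labels give how many members rose and fell. The lowest medians are those of fibroblast markers (-2.1) and neuroectoderm (-2.08). The primed, primitive endoderm, imprinted, immediate early, epithelial, ERK feedback, antigen presentation and actin lists also have medians below -1. The naive list has a median of 0.92 and the Hox list, with 10 genes tested, the highest at 1.33.

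Genes of the DNA methylation machinery moved in both directions. Dnmt3a and Dnmt3b, the genes of the enzymes that place new methyl groups, and Dnmt3l, the gene of their cofactor, all fell. Dnmt3b was at 633 and 631 CPM in FBS/LIF and at 137 and 126 CPM in 2i/LIF, Dnmt3a at 144 and 168 CPM against 25.5 and 20.1 CPM (log2 fold change -2.77, SE 0.23), and Dnmt3l had a log2 fold change of -1.51 (SE 0.13). The maintenance enzyme gene Dnmt1 was not called, at 452 and 463 CPM against 551 and 539 CPM, although it was without F/A replicate 1 (adjusted p = 0.0242 in edgeR's test), and Uhrf1, whose product brings Dnmt1 to replicated DNA, was at 258 and 304 CPM against 707 and 707 CPM (log2 fold change 1.33, SE 0.14). Tet2, the gene of an enzyme that oxidises methyl groups, rose by 1.08, while its relative Tet3 fell by 2.02, a call lost without FBS/LIF replicate 2 (adjusted p = 0.0621) or 2i/LIF replicate 1 (adjusted p = 0.078) in edgeR's test. In all, 5 of 17 rose and 6 fell. Of the rises, 3 were called without FBS/LIF replicate 1 or 2i/LIF replicate 2, and 8 genes rose without F/A replicate 1.

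Germline genes that are known to be silenced by promoter methylation showed no called rise: of the 23 that passed the filter, of 27 listed, 10 fell and 0 rose in edgeR's test. At an unadjusted p under 0.05, 11 were lower and 5 higher, DESeq2 called 11 lower and 1 higher, and the test on unique fragments called 3 higher. The rises numbered 1 with the replicate block, 2 in the 4 libraries alone and 2 without F/A replicate 1. Ddx4, the gene of a germ cell RNA helicase, was at 30.0 and 35.7 CPM in FBS/LIF and at 5.41 and 4.65 CPM in 2i/LIF (log2 fold change -2.71, SE 0.20), and Stra8, a gene of meiotic entry, fell by 3.10. Without 2i/LIF replicate 1, 6 of the 10 falls were called. Imprinted genes, expressed from the maternal or the paternal copy only, fell in 18 of the 30 that passed the filter and rose in 3, with a median of -1.38. Cdkn1c, the gene of a cell cycle inhibitor, was at 69.7 and 60.2 CPM against 2.38 and 1.74 CPM (log2 fold change -4.97, SE 0.18), and its neighbour in the same imprinted cluster, Phlda2, was at 49.6 and 43.5 CPM against 2.01 and 1.51 CPM. Grb10, an adaptor gene of growth factor receptors, was at 381 and 529 CPM against 36.3 and 43.3 CPM (log2 fold change -3.52, SE 0.19). Plagl1, a zinc finger gene, was at 3.10 and 4.88 CPM against 24.8 and 29.0 CPM (log2 fold change 2.75, SE 0.30). Without FBS/LIF replicate 2, 1 of the 3 imprinted rises was called.

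Among Polycomb subunit genes 7 of 24 rose and 2 fell. Suz12, a core subunit gene of the complex that methylates histone H3 at lysine 27, was at 203 and 227 CPM in FBS/LIF and at 410 and 398 CPM in 2i/LIF (log2 fold change 0.91, SE 0.17). The accessory genes Phf19 and Jarid2 fell, Phf19 from 14.1 and 13.0 CPM to 0.583 and 0.448 CPM (log2 fold change -4.69, SE 0.23) and Jarid2 by 1.30. The rises numbered 4 without FBS/LIF replicate 2 or without 2i/LIF replicate 1, and 11 with F/A replicate 1 left out of the shared fit.

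Transcripts of G1 cyclin genes moved in both directions, and the values of Ccnd1, whose fall was not stable, are given above. Of 20 genes of G1 control that passed, 7 rose and 5 fell. Ccnd2 was at 10.1 and 15.98 CPM in FBS/LIF and at 0.424 and 0.392 CPM in 2i/LIF (log2 fold change -4.97, SE 0.58), Ccnd3 at 60.8 and 66.0 CPM against 132 and 143 CPM (log2 fold change 1.12, SE 0.14), and the cyclin E gene Ccne1 at 224 and 247 CPM against 93.8 and 101 CPM. Without FBS/LIF replicate 1, FBS/LIF replicate 2, 2i/LIF replicate 1 or 2i/LIF replicate 2 the rises numbered 3, 4, 3 or 3, and the falls 2 each time. In the Myc family 2 of 11 rose and 2 fell (36.4% called, against 30.4% of all genes). Mycn was at 327 and 348 CPM against 77.6 and 76.5 CPM (log2 fold change -2.13, SE 0.15), and its relative Mycl at 17.6 and 17.1 CPM against 86.0 and 72.2 CPM (log2 fold change 2.19, SE 0.16). On the FPKM level Myc was at 4.18 and 6.92 against 1.67 and 2.77. Without 2i/LIF replicate 2, 1 of the 2 falls in this family was called. Ribosome biogenesis genes, common targets of Myc, fell in 3 of 20, below the 17.9% background, and these calls numbered 0, 1, 0 and 0 when the same libraries were left out in the same order, and 5 without F/A replicate 1. Of 20 p53 targets 3 rose and 5 fell, with Perp, a junction and cell death gene, at 76.7 and 72.9 CPM against 13.1 and 14.2 CPM. Cdkn1a and Sesn1, also p53 targets, stood higher in 2i/LIF on the FPKM level. Cdkn1a was at 1.93 and 3.03 in FBS/LIF against 7.31 and 7.35 in 2i/LIF, and Sesn1 at 5.02 and 4.57 against 14.5 and 14.8. The p53 falls numbered 3 without 2i/LIF replicate 1 or 2i/LIF replicate 2, and the rises 1 without FBS/LIF replicate 1 or 2i/LIF replicate 1.

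In glycolysis 9 of 23 genes rose and 5 fell. Hk1, the gene of a hexokinase of the entry step, was at 11.0 and 16.3 CPM in FBS/LIF and at 54.9 and 56.6 CPM in 2i/LIF (log2 fold change 2.03, SE 0.20), and Pfkp, a phosphofructokinase gene, at 121 and 122 CPM against 383 and 354 CPM (log2 fold change 1.60, SE 0.13). On the FPKM level Hk1 was at 2.86 and 4.7 against 15.6 and 16.4, and its more abundant relative Hk2 at 54.5 and 68.2 against 69.8 and 85.5. Pdk1, whose kinase restrains the use of pyruvate within the mitochondrion, was at 321 and 282 CPM against 102 and 93.9 CPM (log2 fold change -1.62, SE 0.15), and the muscle enolase gene Eno3 fell by 2.27. Glycolytic rises numbered 6 without FBS/LIF replicate 2 or 2i/LIF replicate 1. Nuclear genes of oxidative phosphorylation were nearly flat, with 1 of 29 higher (Cox5a) and 0 lower in edgeR's test and a median of 0.10, and with 0 lower also at an unadjusted p under 0.05 or with DESeq2, and with 2 higher without F/A replicate 1. Of 13 transcripts of the mitochondrial genome 2 rose (15.4%, against 12.5% of all genes). This number was 1 without FBS/LIF replicate 1 or 2i/LIF replicate 2, and 5 without 2i/LIF replicate 1, and it was 4 with DESeq2 and 4 with the replicate block.

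Lipid synthesis genes rose in part. Of 14 fatty acid genes 9 rose and 1 fell, with a median of 0.64: Scd1, the gene of stearoyl-CoA desaturase, was at 25.4 and 29.9 CPM in FBS/LIF and at 130 and 128 CPM in 2i/LIF (log2 fold change 2.23, SE 0.14). The 1 fall was called without FBS/LIF replicate 1 and not without any of the other 3 libraries. Of 24 cholesterol genes that passed, 6 rose and 2 fell, about the background share (33.3% called, against 30.4% of all genes). The rises numbered 3 without FBS/LIF replicate 2 or 2i/LIF replicate 1, and the falls 1 without either of these or without 2i/LIF replicate 2. The amino acid stress list of the factor ATF4 fell: 19 of 30 were lower and 1, Asns, higher, with a median of -0.67. Asns, the asparagine synthetase gene, was at 237 and 218 CPM in FBS/LIF and at 894 and 884 CPM in 2i/LIF (log2 fold change 1.97, SE 0.15), while 19 others fell and 10 were not called. Chac1, a glutathione-degrading enzyme gene induced by ATF4, was at 14.3 and 12.8 CPM against 1.96 and 1.91 CPM, and the serine synthesis genes Psat1 and Phgdh fell by 1.12 and 1.04. Atf4 itself was not called.

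Components of the LIF pathway were split, with 4 of 18 higher and 6 lower. Socs2, a feedback inhibitor gene of cytokine receptors, was at 101 and 93.1 CPM in FBS/LIF and at 37.6 and 33.3 CPM in 2i/LIF (log2 fold change -1.45, SE 0.11). Among BMP genes and the Id genes that BMP induces, 4 of 17 rose and 4 fell. Id1 was at 27.8 and 29.6 CPM against 2.91 and 3.14 CPM (log2 fold change -3.24, SE 0.21) and Id2 at 33.9 and 37.3 CPM against 3.92 and 3.76 CPM, while Id4 was at 5.27 and 4.36 CPM against 16.4 and 15.8 CPM. On the FPKM level Id3 overlapped between the media, at 41.9 and 28.6 against 41.1 and 38.6. The falls among BMP genes numbered 2 without FBS/LIF replicate 1 or 2i/LIF replicate 1. In the Nodal and activin pathway 6 of 19 rose and 4 fell. The inhibitor genes Lefty1 and Lefty2, neighbours that respond to Nodal, parted: Lefty1 was at 210 and 166 CPM in FBS/LIF and at 24.8 and 22.7 CPM in 2i/LIF (log2 fold change -2.99, SE 0.15), and Lefty2 at 79.0 and 84.2 CPM against 208 and 196 CPM (log2 fold change 1.30, SE 0.11). Skil, a repressor gene of SMAD signalling, was at 434 and 481 CPM against 90.0 and 86.6 CPM (log2 fold change -2.37, SE 0.13), and Inhbb, an activin subunit gene, fell by 3.23.

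Of 27 lysosomal genes and targets of the factor TFE3, 11 rose and 2 fell, with a median of 0.09. The list holds Mitf, a relative of Tfe3, given above. On the FPKM level Tfe3 itself was at 21.1 and 23.5 in FBS/LIF and at 8.16 and 11.0 in 2i/LIF. Of the falls, 1 was called without FBS/LIF replicate 2 or without either 2i/LIF library. Genes of class I antigen presentation fell in 8 of the 13 that passed, and 1, Tapbp, rose: H2-K1 had means of 26.5 and 10.8 CPM in FBS/LIF and 2i/LIF. Of 11 metallothionein and zinc genes 2 rose and 3 fell, with the transporter gene Slc39a14 at 155 and 138 CPM against 22.2 and 20.1 CPM (log2 fold change -2.79, SE 0.18). The rises in this list numbered 1 without FBS/LIF replicate 1 or 2i/LIF replicate 2, and 4 without F/A replicate 1. Of 17 genes of the oxidative stress factor NRF2 and glutathione 6 fell and 1 rose, a count of rises that was 5 in the fit of the 4 libraries alone or without F/A replicate 1.

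In the Lin28 pathway, in which LIN28 proteins block the maturation of let-7 microRNAs, 4 of 10 genes fell and 3 rose. Lin28a was at 533 and 541 CPM in FBS/LIF and at 137 and 127 CPM in 2i/LIF (log2 fold change -2.02, SE 0.13), and Lin28b at 95.0 and 89.2 CPM against 13.6 and 14.3 CPM (log2 fold change -2.72, SE 0.10). Hmga2, a chromatin protein gene known as a let-7 target, was at 5.73 and 6.70 CPM against 27.0 and 29.8 CPM (log2 fold change 2.19, SE 0.26). The falls numbered 2 without FBS/LIF replicate 2 or 2i/LIF replicate 1. Of the Hox genes 10 of 38 listed passed the filter, and 3 rose and 2 fell, all with means under 4 CPM. The Hox rises numbered 1, 2 and 1 without FBS/LIF replicate 2, 2i/LIF replicate 1 and 2i/LIF replicate 2, and the falls 0 without either FBS/LIF library or 2i/LIF replicate 1 and 1 without 2i/LIF replicate 2.

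**Figure D4:**
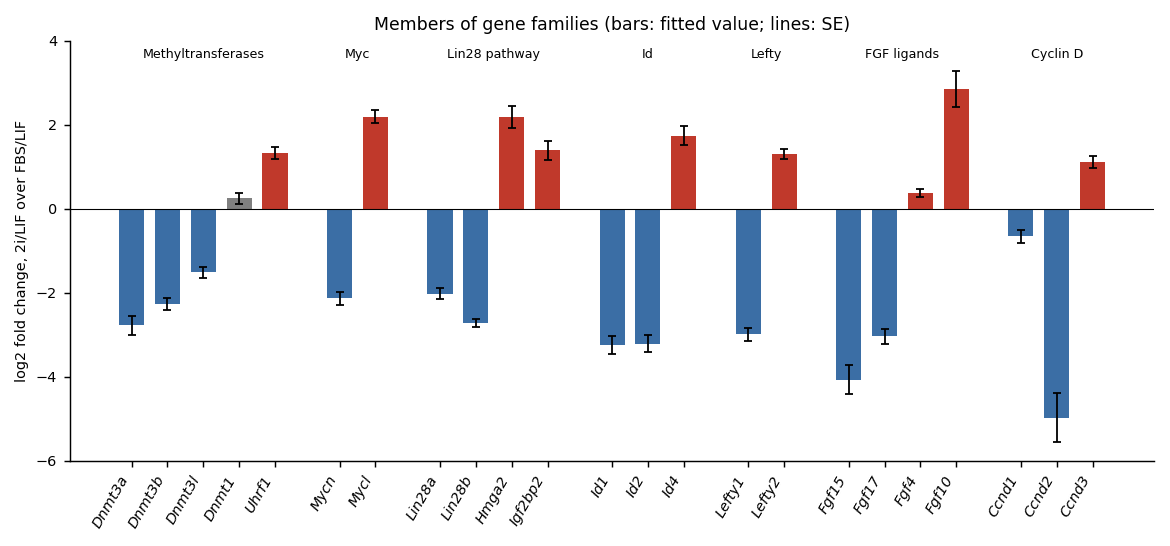
Log2 fold change of 2i/LIF over FBS/LIF (vertical axis) for members of 7 gene groups, with bars at the fitted value and lines for its SE; red rose, blue fell and grey was not called. The members drawn were chosen after their values were seen, and others, such as Id3 and Myc, are not drawn. Some of the relatives drawn point in opposite directions, as with Mycn at -2.13 and Mycl at 2.19, or Lefty1 at -2.99 and Lefty2 at 1.30.

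The same 2i/LIF libraries were set against the other media, so these comparisons share them and are not independent. Against VitC/LIF 24.5% of the genes tested were called, against L-Pro/LIF 44.6% and against F/A 58.4%. In 847 genes (5.28%) 2i/LIF was higher than each of the other 4 media, and in 1588 (9.9%) it was lower than each. Without 2i/LIF replicate 1 or replicate 2 the higher genes numbered 429 or 460 and the lower genes 1015 or 1068. Of the 22 naive genes 13 were higher than in each other medium. Of the 17 actin and SRF targets 13, of the 29 epithelial genes 17, of the 30 imprinted genes 13 and of the 19 immediate early genes 9 were lower than in each.

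Several genes of the FBS/LIF comparison stood apart from every medium in level. Esrp1 had a mean of 53.2 CPM with VitC/LIF, 60.7 CPM with FBS/LIF, 68.2 CPM with L-Pro/LIF and 83.8 CPM with F/A, against 0.330 CPM with 2i/LIF. Tagln had means of 108, 99.9, 227 and 119 CPM in the same order, against 2.69 CPM. Cdx1 had means of 0.960, 0.604, 0.552 and 0.442 CPM, against 25.6 CPM. Notum and Apcdd1 were also higher in 2i/LIF than in each other medium, which makes 3 of the 20 Wnt targets. Axin2, Sp5 and T were not: Axin2 had means of 3.71, 3.89, 14.0 and 34.4 CPM, against 43.0 CPM in 2i/LIF, and was not called between 2i/LIF and F/A, and Sp5 was lower in 2i/LIF than in F/A (log2 fold change -1.06). T had a mean of 327 CPM in F/A, far above the 3.80 CPM of 2i/LIF. Nkx1-2 had means of 0.142, 0.279, 2.76 and 45.1 CPM, so its level in 2i/LIF, 28.7 CPM, was closest to that of F/A and called lower than it. Among genes that fell, Dppa3 was lower in 2i/LIF than in VitC/LIF (66.8 CPM) and FBS/LIF but above F/A (0.025 CPM), and Dnmt3l stood between VitC/LIF (159 CPM) and L-Pro/LIF (47.3 CPM).

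**Figure D5:**
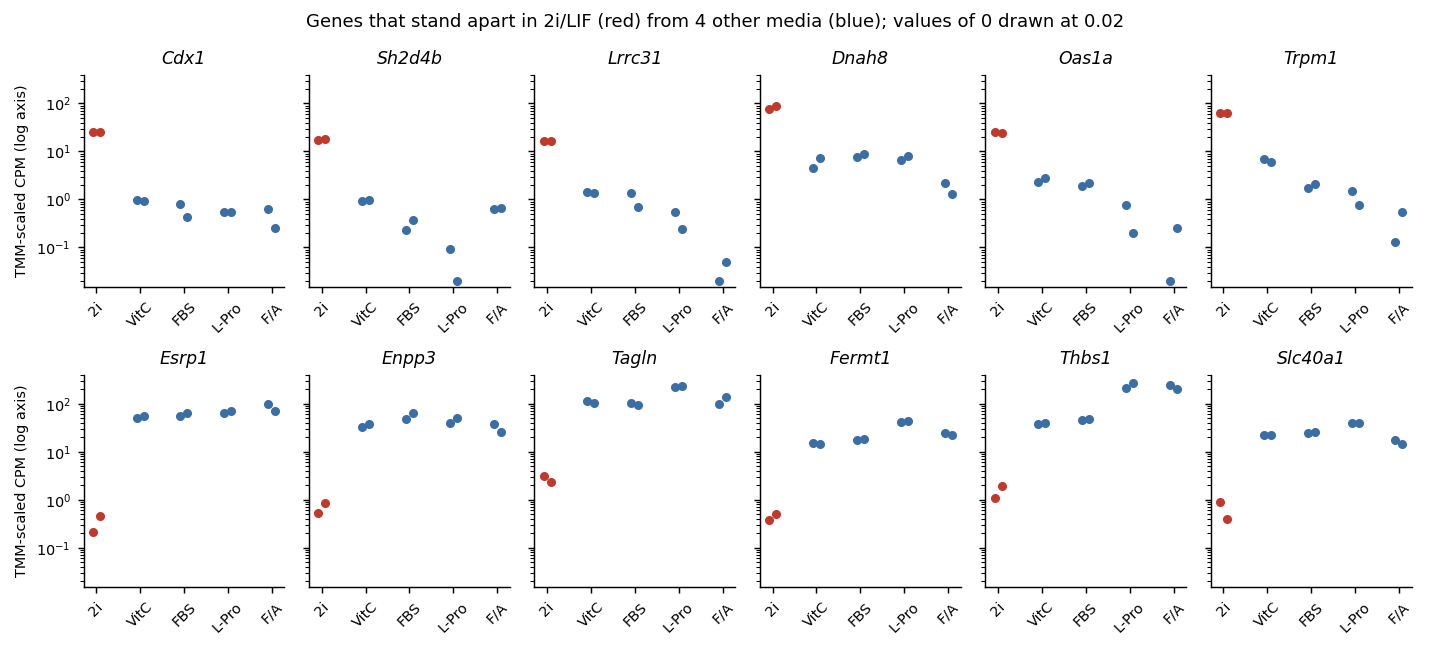
TMM-scaled CPM (vertical log axis, values of 0 drawn at 0.02) of 12 genes in the 2 libraries of each of 5 media; red is 2i/LIF and blue the other media. The upper 6 genes are higher in 2i/LIF than in every other medium, with Cdx1 at 25.5 and 25.8 CPM, and the lower 6 genes are lower than in every other medium, with Esrp1 at 0.212 and 0.448 CPM.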

How the data were processed

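Per the file headers, the authors deposited 1 gene-level table for each library, with the columns of the program mmseq: expression as a natural log on the FPKM scale, an effective length, and the count of fragments that hit no other gene. The submitters' processing notes name CASAVA, TopHat2 2.0.13, Bowtie, HTSeq 0.6.1p1, DESeq and the build mm9/NCBIM37, without roles. Counts were estimated from the deposited natural log values as FPKM times effective length times mapped fragments, and rounded. They are not the authors' own counts. Of 7187 genes with at least 100 unique fragments in every library, 78.5% of values lay within 5% of the unique count.

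All 10 libraries of the 5 media entered 1 fit in edgeR 4.0.16 (R 4.3.3): filterByExpr, TMM, 1 coefficient per medium, the quasi-likelihood test and Benjamini-Hochberg adjustment over 16033 genes. The SE is the fold change divided by the root of the F statistic, with 5 residual degrees of freedom. With 2 libraries per medium no test on single values can be made, and precision rests on the spread shared over media. Tested on simulated data for 2i/LIF against FBS/LIF (15562 genes), the fit called 1 of 50 genes changed 1.5-fold, 19 of 50 changed 2-fold, 40 of 50 changed 4-fold, 46 of 50 changed 8-fold and 6 of 15362 unchanged genes. Far fewer genes were changed there than the 30.4% called in the data. The adjusted p was therefore stricter in the simulation, and these rates need not hold for the data.

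The 44 lists (811 symbols, 741 tested, 18 without an identifier) and the members were chosen with earlier results of these data known. Genes were named by rule: the 15 highest and 15 lowest called fold changes with a mean of at least 16 CPM in the higher medium and 50% unique fragments, up to 4 called and 2 uncalled members per list, a fixed panel of pluripotency genes, and 6 genes each higher or lower than in every other medium. Other list members named, and the families drawn together, were chosen after their values were seen. Ratios against 0 use a floor of 3 counts over the group. Alternatives were RLE size factors, no filter, DESeq2 1.42.0, unique fragments as counts, the replicate block, the 4 libraries alone and each library left out. Leaving out F/A replicate 1, the shallowest library, was chosen after seeing the data. The 4 single libraries of another experiment were left out.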

Additional observations from a re-analysis of the deposited data

How the results depend on the processing

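The number of genes called between 2i/LIF and FBS/LIF was 4851 with RLE size factors, 4667 without the filter, 4923 with DESeq2, 5326 on unique fragments, 5234 in the 4 libraries alone and 5922 without F/A replicate 1, against 4867 in the shared fit. With 1 library of either medium left out it lay between 2932 and 3298, against VitC/LIF between 2150 and 2302, against L-Pro/LIF between 5134 and 5369 and against F/A between 6938 and 10066. Genes higher than in each other medium then numbered 429 to 460 and genes lower than in each 1015 to 1068. The remaining library of a medium is assumed to vary like the others, and fewer samples leave fewer degrees of freedom. With the replicate block 4747 genes were called, the block ended no call among the 149 genes of the text that were refitted, and of the list counts it moved those of germline and mitochondrial rises by over 1.5 times. The labels do not say what a replicate number stands for. Deviations from the medium means correlated at 0.29 between FBS/LIF and 2i/LIF and at 0.1 to 0.52 over all pairs of media, the fitted biological coefficient of variation fell from 0.238 to 0.189 with the block, and median effective lengths in each replicate 2 library were 39.4 to 54.1 bases above those of FBS/LIF replicate 1, against -1 to 7 bases in the other replicate 1 libraries. What the numbers share was not tested. The fold change of Pou5f1, which was not called, ran from -0.071 to 0.176 with 1 library left out. DESeq2 and RLE size factors kept the direction and call of all 149 genes, while the calls of Fgf4 (adjusted p = 0.129), Jup (adjusted p = 0.124) and Cnn3 (adjusted p = 0.183) were lost in edgeR's test without the filter and that of Lgr5 (adjusted p = 0.0885) on unique fragments. Among the calls, the share that was higher ran from 37.0% to 47.7% over all settings. In 12 lists a gene had no counts in 1 medium, and setting such genes at their bound moved 2 medians, by at most 0.13.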
